A study of Lentinus brumalis with 11 samples.

Results

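A set of 72 genes of the white-rot fungus *Polyporus brumalis* was transcribed above the level of the liquid culture at Day 4 of solid-state fermentation (SSF) on wheat straw and below it at Day 15. The members were taken from the 18244 genes of the count table by 3 thresholds, and so were chosen by their measured values, the group means of log2 normalized read counts, log2(count / size factor + 1), here called the level. The mean Day 4 level was at least 1 above the control mean, the mean Day 15 level was at least 1 below it, and the mean Day 4 level was at least 6. Genes that the study listed as peroxidases, oxidoreductases, carbohydrate-active enzymes or core genes were to be left out. The check covered 125 genes, and 0 of these met the thresholds. It held only a part of the core genes, and whether the remaining core genes are among the members was not checked. The Day 4, Day 15 and control libraries thus chose the members, and the differences among these groups describe the choice and are no finding. The Day 10 libraries had no part in it.

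The dikaryotic strain BRFM 985 was grown throughout. The control mycelium was grown for 10 days in liquid 2% malt extract (3 libraries). For SSF, mycelium from 6 days in the same medium was put on sterilized wheat straw with copper, iron and manganese salts, in aerated columns, for 4 days (2 libraries), 10 days (3 libraries) or 15 days (3 libraries). The control, at 10 days, had the total age of the Day 4 cultures but not that of Day 10 and Day 15, for which the change of substrate and the age of the culture cannot be told apart. The paper's methods give a longer preculture for the inoculum than its other passages, so this match in age is approximate. Solid culture, aeration and added salts also set every SSF group apart from the control and cannot be told apart from the substrate. The reads were mapped to the genome of a monokaryotic strain, so transcripts of 2 differing alleles were counted against 1 reference. The labels do not say whether libraries of a group came from separate bioreactors, and p-values measure the spread between these libraries. The paper calls them biological replicates. It also states that straw of replicate columns was pooled for the biochemical measurements, and not whether RNA came from such pools.

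White-rot fungi digest all polymers of the plant cell wall, lignin included, with secreted hydrolases and oxidoreductases. On straw, the mycelium first meets a new solid substrate with some soluble sugars and then depends more and more on the polymers, while it colonizes the material. Transcripts that pass through a maximum early in such a culture can belong to any of these processes. The sources used here give no product name or function for any of the 72 members, so they are named by their protein numbers and no role is given to them.

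The libraries held 20368063 to 42408348 counts, and 15836 to 16090 genes had a count. All 72 members were among the 15462 genes that passed the filter on low counts, but 9 of them had under 10 counts in at least 1 library, the lowest count being 3. Replicate 3 of Day 10 stood apart from the other two libraries of its group. The chi-square of the counts per gene was 86.4 and 90.3 in its comparisons with the other Day 10 libraries, against 24.9 between those and 6.12 to 20.0 between libraries within the other groups. For several of the members named below, Day 10 values are therefore also given without this replicate.

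Of 2260 genes that met both Day 4 thresholds, 1168 were at least 1 above control at Day 15, 1020 were within 1 of it, and 72 were at least 1 below it. Of all genes tested, 15.9% were at least 1 below control at Day 15. Genes chosen for a Day 4 mean above the control are less often found below that same control. These numbers therefore describe the choice and are no finding. The number of 72 depends on the cut of 1. The edgeR test described below called 179 of the 2260 lower than control at Day 15 (33% of all genes tested). The median level of the 72 members was 8.79 in the control and 10.46 at Day 4, then dropped through 7.71 at Day 10 to 7.17 at Day 15. Their Day 4 means ran from 1.01 to 6.00 above control, with a median of 1.38, and 56 of the 72 were under 2 above it. At Day 15 they were 1.01 to 3.59 below control by their means, with a median difference of -1.43, and 56 were again under 2 below it. Thus most members were moderately above control at Day 4 and moderately below it at Day 15, and a few with large differences stood out from them. From Day 4 to Day 15 the median log2 fold change of the members was -2.97 in edgeR's fit.

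**Figure D1:**
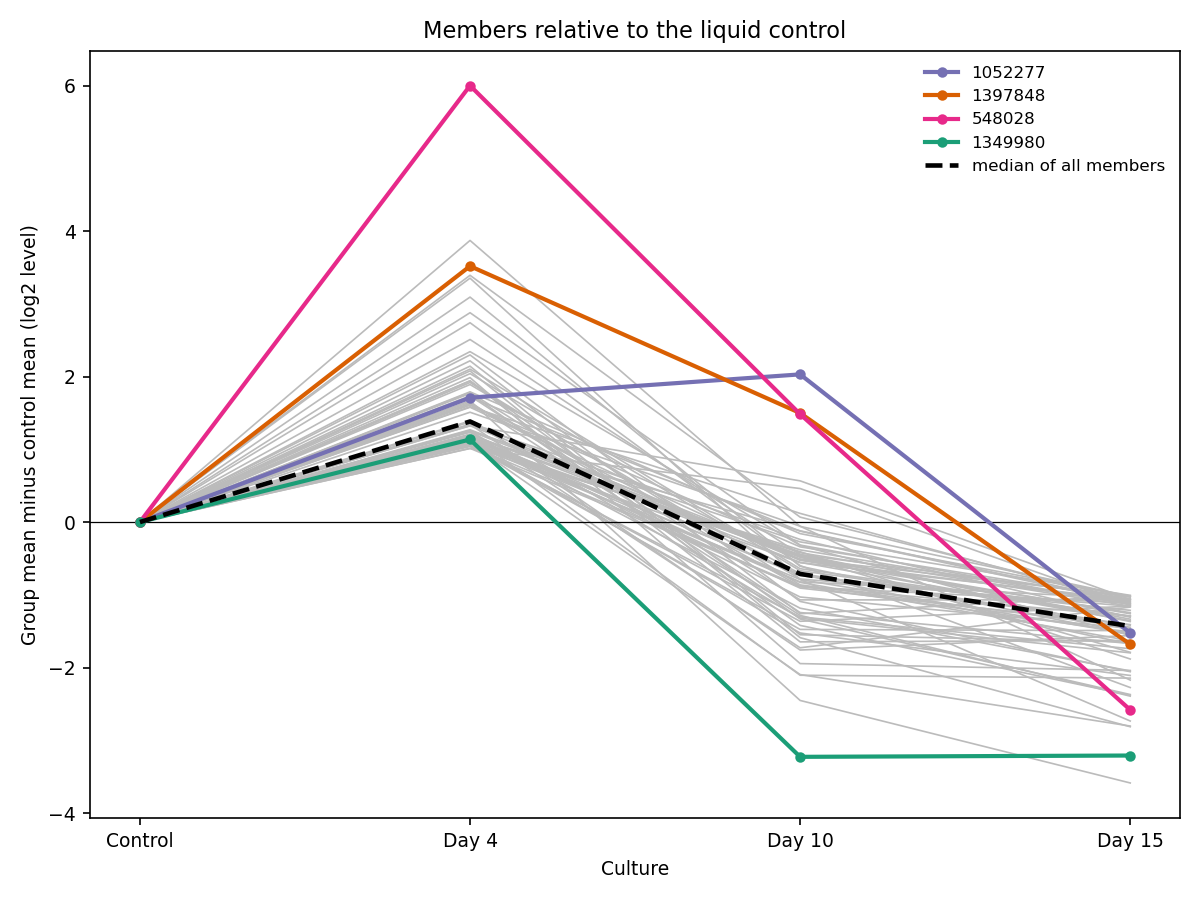
Mean level of each of the 72 members minus its control mean (y axis, log2) in the control and at Days 4, 10 and 15 of SSF (x axis, evenly spaced); grey lines are single members, coloured lines are the members with the 3 highest and the lowest Day 10 difference, and the dashed line is the median. The median difference is 1.38 at Day 4, -0.71 at Day 10 and then -1.43, while 1052277, 1397848 and 548028 remain above control at Day 10.

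Calls between the groups that chose the members were fixed by that choice and are given as a description. The fit across all genes called all 72 members higher at Day 4 than in the control (30.1% of all genes tested were called higher and 32.2% lower) and 71 of them lower at Day 15 than in the control (33% were called lower and 33% higher). Called here means an adjusted p under 0.05 in edgeR's quasi-likelihood test over all genes tested. All 72 were also called lower at Day 15 than at Day 4 (29.2% of all genes tested were called lower there and 28.6% higher). The shares of all genes come from genes not chosen by these values, so nothing is read from setting them beside the members' counts. The remaining member, 854442, was at 4.19, 4.98 and 4.60 in the control, at 6.71 and 6.91 at Day 4, at 2.59, 3.72 and 3.69 at Day 10, and at 4.53, 2.94 and 3.27 at Day 15. It was the member with the widest spread at Day 15 (SD 0.84, n = 3), and its first Day 15 library lay within the range of the control. Both Day 4 libraries were above every control library for all 72 members, and every Day 15 library was below every control library for 71. The choice by group means favours this too, and the share over all genes was not counted, so it is only a description.

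Genes close to the thresholds for the differences from control show how gradual those limits are. The smallest Day 4 differences inside were 1.01 for both 635874 and 748113, and the nearest outside were 0.99 for 1403264 and 0.97 for 349167. At Day 15, 1264555 and 854442 were just inside at -1.01, and 506740 and 612614 were just outside at -0.99 and -0.97. The lowest mean Day 4 levels inside were 6.00 for 1487647 and 6.04 for 1356622, and those nearest outside were 5.09 for 1467880 and 4.88 for 956059, so this limit fell in a gap. When a library was left out of the rule in turn, 62 to 75 genes were chosen. The left-out Day 4 library then met the Day 4 threshold by itself for 61 of 66 genes (replicate 1) and 59 of 75 genes (replicate 2). For Day 15 the left-out library met its threshold for 51 of 74, 55 of 62 and 57 of 73 genes, and it lay on the same side of the control mean for 73, 62 and 71 of them. A raised difference of 1.5 in place of 1 kept 19 genes.

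A few members held most of the counts. As a share of a library's total, the 72 members together held 0.397% ± 0.0198 in the control (SD, n = 3), 1.85% ± 0.172 at Day 4 (n = 2), 0.370% ± 0.110 at Day 10 (n = 3) and 0.127% ± 0.0186 at Day 15 (n = 3). The 4 members with the highest Day 4 level, 1397848, 548028, 750085 and 1399956, accounted for 1.37% of all counts at Day 4 and 0.202% in the control, while the other 68 accounted for 0.477% ± 0.00165 and 0.195% ± 0.00401. The 68 fell to 0.136% ± 0.0587 at Day 10 and 0.0573% ± 0.00532 at Day 15. At Day 10 the share of all 72 was 0.348% and 0.273% in replicates 1 and 2 and 0.489% in replicate 3. In bulk RNA a smaller share of cells transcribing a gene and less transcript per cell cannot be told apart.

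**Figure D2:**
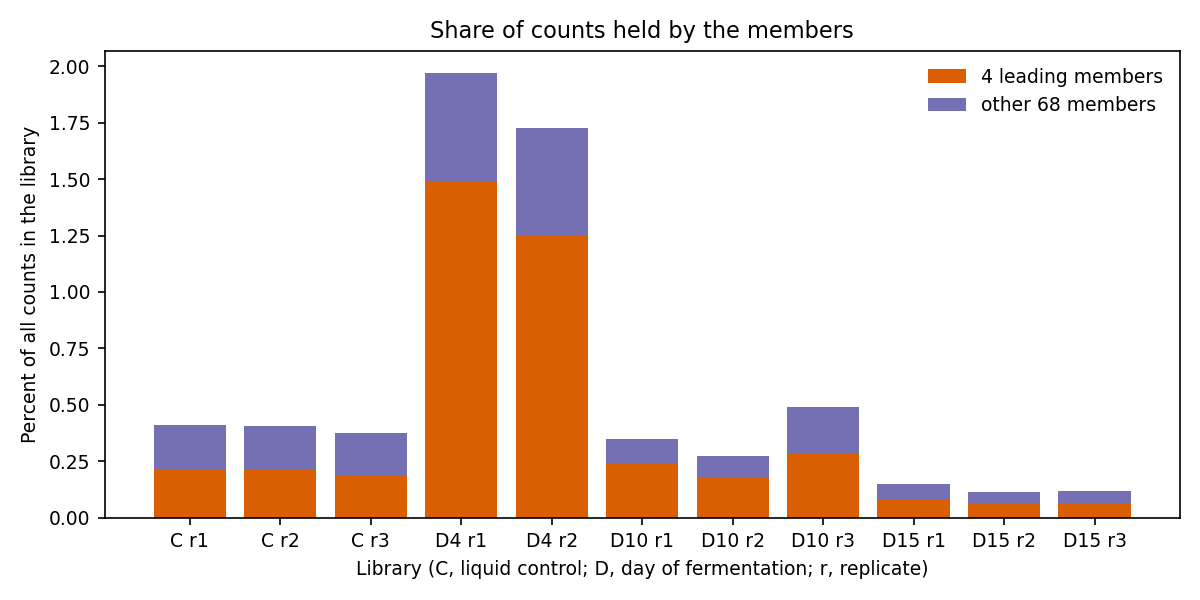
Percent of all counts of a library (y axis) taken by the 4 members with the highest Day 4 level and by the other 68 members (stacked bars), for each of the 11 libraries (x axis). The Day 4 bars reach 1.97% and 1.73%, the control bars 0.374% to 0.412% and the Day 15 bars 0.114% to 0.148%.

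Levels of different genes were compared per kilobase of gene span, introns included. At Day 4, 1397848 reached 151228 normalized counts per kb, higher than 99.9% of the genes tested. It was followed by 548028 with 73964, 750085 with 37458 and 1399956 with 17720 normalized counts per kb, then 1348020 with 10536 and 1477861 with 9736. By Day 15 the same measure was 4119 for 1397848, 196 for 548028, 2337 for 750085 and 2820 for 1399956. The order among these 4 had thus changed: 548028, second at Day 4, was the lowest of them at Day 15. A mean level above 12, which the study treats as high transcription, was reached by 14 members at Day 4 and by 3 in the control, and later by 5 (Day 10) and 2 (Day 15).

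Gene 1397848 had levels of 13.50, 13.55 and 13.52 in the control, 17.13 and 16.95 at Day 4, 15.02, 14.74 and 15.31 at Day 10 and finally 11.97, 11.82 and 11.75 at Day 15. The 4 groups did not overlap, and the Day 10 libraries lay between those of Day 4 and the control. Its Day 10 level was above control by a log2 fold change of 1.501 ± 0.14 (SE; edgeR, adjusted p = 8.6e-07) and its Day 15 level was below Day 10 by -3.20 ± 0.15 (adjusted p = 1.2e-07). Less than 50% of its fall from Day 4 to Day 15, 38.9%, had been made by Day 10.

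Gene 548028 made the largest movement of the set. Its counts were 3891, 3080 and 3653 in the control, 128082 and 84284 at Day 4, 5723, 2482 and 7814 at Day 10, followed by 341, 257 and 337 at Day 15, which are levels of 11.08, 11.003 and 11.02, of 17.23 and 16.83, of 12.81, 11.56 and 13.19, and of 8.88, 8.43 and 8.05. Every Day 10 library was above every control library and below both Day 4 libraries, although the 3 differed more from each other than in any other group. By means on the level scale it was 64.0-fold above control at Day 4 and 5.99-fold below it at Day 15. At Day 10 it was higher than control by 1.62 ± 0.32 (log2, edgeR adjusted p = 6.9e-04), and Day 15 was below Day 10 by -4.19 ± 0.36 (adjusted p = 1.5e-05). Without Day 10 replicate 3 it was higher than control by 1.27 (edgeR adjusted p = 0.00129), and Day 15 was below Day 10 by -3.85 (adjusted p = 2.2e-06). Its span overlaps that of 548252 by 141 bp, a gene whose mean levels of 4.98, 6.02, 4.70 and 4.95 from control to Day 15 were far lower. The sources used here do not give the counting mode, so counts of overlapping genes are uncertain.

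Gene 750085 was at 13.88, 13.94 and 13.62 in the control, 16.71 and 16.67 at Day 4, 13.48, 13.27 and 13.74 at Day 10, then 12.92, 12.62 and 12.51 at Day 15. It was back in the neighbourhood of the control at Day 10, where 1 of its 3 libraries lay inside the control range. The Day 10 difference from control of -0.33 ± 0.15 did not pass (edgeR adjusted p = 0.0663), but did without Day 10 replicate 3 (-0.45, adjusted p = 0.00815) and without control replicate 3 (-0.40, adjusted p = 0.0483). Its fall from Day 4 to Day 10 was -3.15 ± 0.17 (adjusted p = 1.7e-08), and Day 15 was a further -0.83 ± 0.15 lower (adjusted p = 0.0016).

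Gene 1399956, already high in the control, had levels of 14.33, 14.34 and 14.11 there, of 15.94 and 15.73 at Day 4, of 14.00, 13.36 and 13.86 at Day 10, and of 13.53, 13.03 and 12.93 at Day 15. Day 10 was below the control libraries and overlapped Day 15. The Day 10 difference from control was -0.52 ± 0.18 (edgeR adjusted p = 0.0257) and did not pass without control replicate 1, control replicate 2 or Day 10 replicate 2 (adjusted p = 0.0827, 0.0848 and 0.104, the last with -0.34). The step from Day 10 to Day 15 of -0.58 ± 0.18 (adjusted p = 0.0363) passed no more without any one of 6 libraries: both of these control libraries, Day 10 replicates 1 and 3, and Day 15 replicates 2 and 3 (adjusted p = 0.0524 to 0.141).

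**Figure D3:**
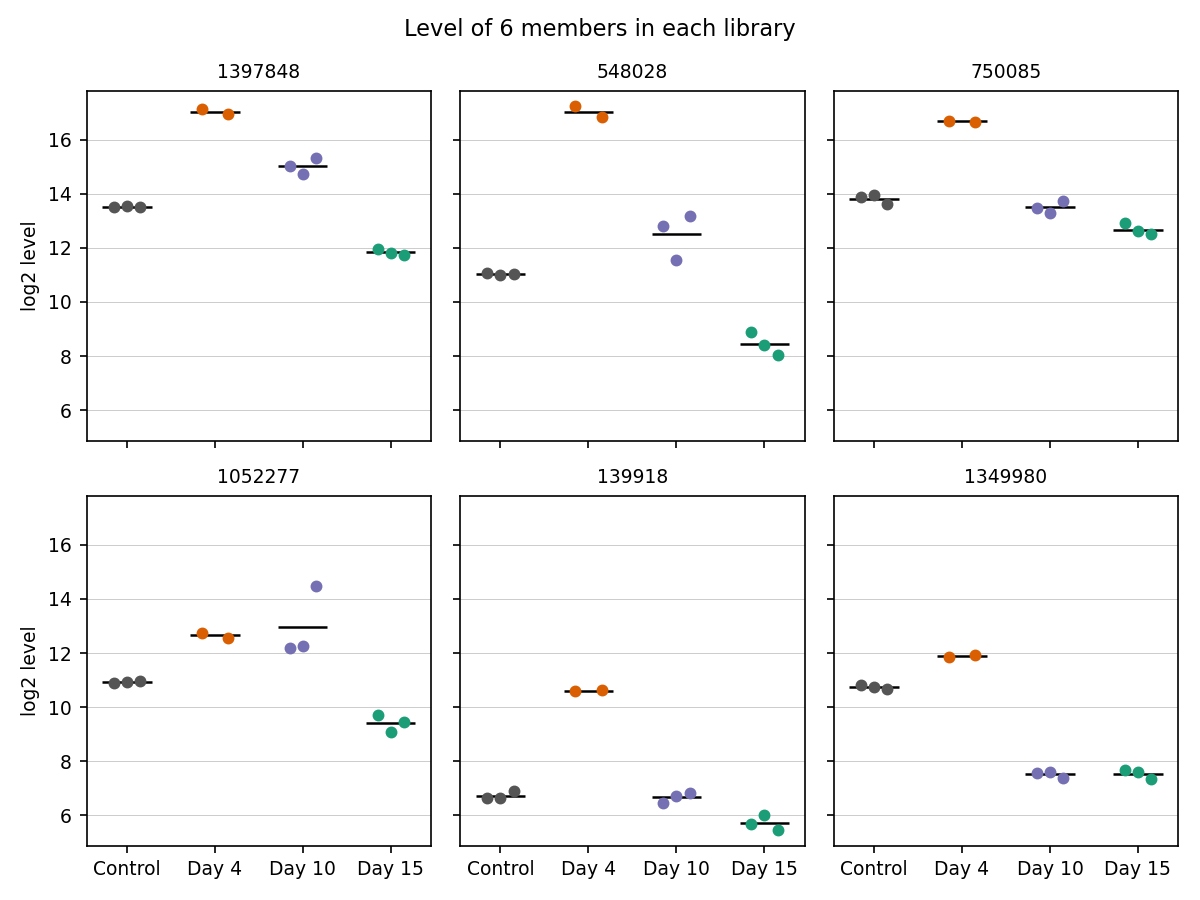
Level (y axis, log2 of normalized count plus 1) of 6 members in each library of the control and of Days 4, 10 and 15 (x axis); points are libraries and bars are group means. Both Day 4 points are above all control points and all Day 15 points below them in each panel, while the Day 10 points are above control for 1397848, 548028 and 1052277 and near 7.5 for 1349980.

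The members with large rises included some with lower levels. Gene 139918 was at 6.65, 6.64 and 6.90 in the control and at 10.58 and 10.62 at Day 4, then at 6.45, 6.72 and 6.84 at Day 10 and 5.67, 5.99 and 5.46 at Day 15. Gene 1353715 was at 7.35, 7.31 and 7.06 in the control and at 10.73 and 10.54 at Day 4, then at 6.996, 7.22 and 7.71 at Day 10 and 6.16, 5.90 and 6.43 at Day 15. For both, the Day 10 libraries overlapped the control, with log2 fold changes of -0.07 ± 0.15 and 0.08 ± 0.18 (edgeR adjusted p = 0.684 and 0.72). Day 15 was lower than Day 10 by -0.99 ± 0.17 for 139918 (adjusted p = 0.00128) and by -1.15 ± 0.20 for 1353715 (adjusted p = 0.00142).

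Gene 167384 combined a large rise with a large later fall. Its levels were 10.23, 10.15 and 10.24 in the control, 13.39 and 13.73 at Day 4, 9.10, 9.29 and 9.88 at Day 10 and finally 7.26, 7.64 and 7.53 at Day 15. No groups overlapped, and Day 10 lay between the control and Day 15. It was below control at Day 10 by -0.77 ± 0.17 (edgeR adjusted p = 0.00178) and lower by a further -1.98 ± 0.19 at Day 15 (adjusted p = 2.9e-05).

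Gene 1366169, the sixth by Day 4 level, was at 11.83, 11.79 and 11.54 in the control, 13.61 and 13.41 at Day 4, 11.72, 11.20 and 11.76 at Day 10, followed by 10.87, 10.58 and 10.64 at Day 15. Its Day 10 and control libraries overlapped (-0.16 ± 0.15, edgeR adjusted p = 0.367), and Day 15 was lower than Day 10 by -0.89 ± 0.15 (adjusted p = 0.00121). Gene 1411886 was at 9.91, 10.10 and 10.01 in the control, 13.10 and 13.11 at Day 4, 8.84, 9.10 and 10.26 at Day 10, then 8.42, 8.71 and 8.25 at Day 15. Here replicate 3 of Day 10 was above every control library and the other 2 were below all of them. With all libraries its Day 10 difference from control was -0.49 ± 0.27 (adjusted p = 0.137), and without Day 10 replicate 3 it was -1.05 (adjusted p = 7.4e-06). Its Day 15 level was below Day 10 by -1.08 ± 0.28 (adjusted p = 0.0152), by -0.52 without Day 10 replicate 3 (adjusted p = 0.0108), and not past the threshold without Day 15 replicate 3 (adjusted p = 0.0665).

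Day 10, the time point outside the rule, was compared with the control and with the days before and after it. In these tests 1 side, the control, Day 4 or Day 15, had a part in choosing the members, and members chosen for a high Day 4 level are more often found lower at any other time. Between Day 4 and Day 10, 69 of the 72 members fell (22% of all genes tested were called lower) and 0 rose by edgeR's test (22.3% were called higher), also 0 at an unadjusted p under 0.05 and 0 by DESeq2. The median log2 fold change was -2.30 in the members, 0.03 over all genes tested and -0.55 in the 2260 genes above both Day 4 thresholds, which include the members. In that pool, 1306 genes were called lower and 243 higher.

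Against the control, 46 members were lower at Day 10 (31.1% of all genes tested were called lower), 3 were higher (31.5% were called higher) and 23 did not pass. The median log2 fold change was -0.70, against -0.02 over all genes tested and 1.21 in the pool of 2260, of which 1934 were higher and 71 lower. By mean levels, 65 members were below control at Day 10 and 7 above it. Scaling by library totals alone shifted the Day 10 differences of all genes from control by a median of -0.23 and gave 57 members lower and 3 higher.

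From Day 10 to Day 15, 47 members fell (12.4% of all genes tested were called lower) and 25 did not pass. The members were chosen for a low Day 15 level, which favours such a fall, and the other genes were not. These falls, and the medians set beside them, are therefore only a description. No member rose by edgeR's test (0 of 72; 11.7% of all genes tested were called higher), with 0 at an unadjusted p under 0.05 and 0 by DESeq2. The median log2 fold change was -0.75 in the members, -0.00 over all genes tested and -0.18 in the pool. The exception when libraries were left out was 543607, which was named after its value was seen: without Day 10 replicate 1 it was called higher at Day 15 by 0.30 ± 0.09 (adjusted p = 0.0388), against 0.20 with all libraries (adjusted p = 0.17). It overlaps the gene 1351008 by 195 bp.

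The place of Day 10 divided the members into 3 classes. The Day 10 mean was at least 1 above control in 3 members (4.17%), within 1 of it in 45 (62.5%) and at least 1 below it in 24 (33.3%). Of the 2260 genes above both Day 4 thresholds 59.7% were at least 1 above control at Day 10 and 1.11% at least 1 below it, and of all genes tested 14.0% and 14.4%. The 25 genes of the pool at least 1 below control at Day 10 thus held 24 members. The members are by the rule the genes of this pool at least 1 below the same control at Day 15. That choice favours the overlap and the contrast with the pool, so both are only a description. From Day 10 to Day 15, 3 of the 3 members above control, 35 of the 45 near control and 9 of the 24 below control were called lower, with median log2 fold changes of -3.97, -0.81 and -0.42. As the classes were cut on the Day 10 mean and every member ended below control at Day 15, this order is set by the classes and is only a description. Without Day 10 replicate 3 the classes near and below control held 37 and 32 members.

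**Figure D4:**
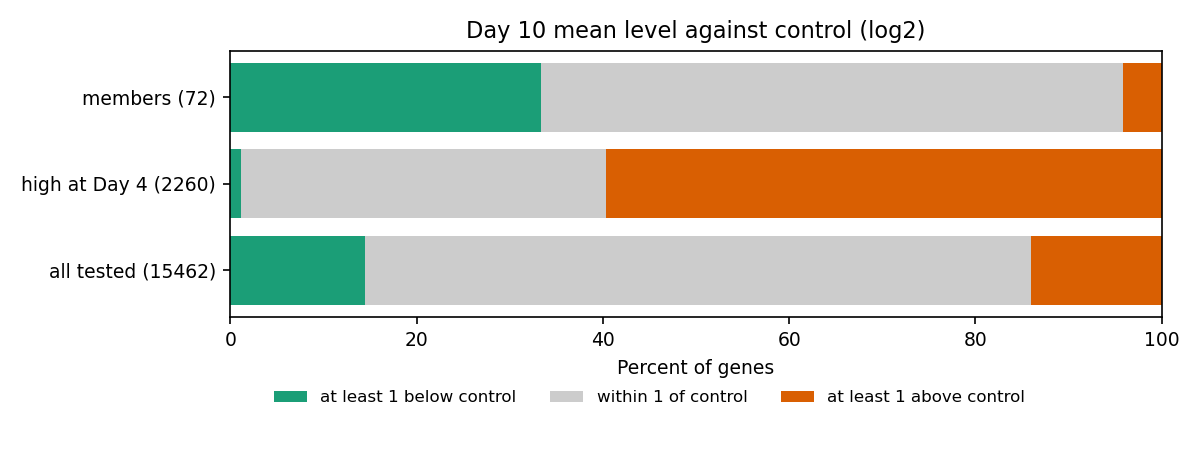
Percent of genes (x axis) whose mean Day 10 level was at least 1 below, within 1 of or at least 1 above the control mean (log2), for the 72 members, the 2260 genes above both Day 4 thresholds and all 15462 genes tested. The members have 33.3% below and 4.17% above, and the 2260 genes have 1.11% below and 59.7% above. The members were chosen from the 2260 for a Day 15 mean at least 1 below the same control.

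Most of the fall was therefore made in the first and longer of the 2 intervals. The median member had made 76.4% of its way from the Day 4 mean to the Day 15 mean by Day 10. In 5 members this share was under 50%, in 60 it was 50% to 100%, and in 7 it was over 100%, the Day 10 mean being below that of Day 15. The pool of 2260 genes had median levels of 10.74 at Day 4, 10.10 at Day 10 and 9.84 at Day 15. A larger first step was thus not particular to the members.

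The 3 members above control at Day 10 were 1397848, 548028 and 1052277. Gene 1052277 had levels of 10.91, 10.93 and 10.98 in the control, 12.76 and 12.54 at Day 4, 12.17, 12.25 and 14.49 at Day 10 and finally 9.72, 9.07 and 9.45 at Day 15. Replicate 3 of Day 10, with 19272 counts against 3674 and 4004, was above both Day 4 libraries, and the other 2 Day 10 libraries were below both. It was the 1 member with a mean higher at Day 10 than at Day 4, and the difference of 0.78 ± 0.53 did not pass (edgeR adjusted p = 0.257). Without replicate 3 the direction turned, to -0.40 (adjusted p = 0.047). Its Day 10 level was above control by 2.45 ± 0.49 (adjusted p = 7.7e-04) and by 1.26 without replicate 3 (adjusted p = 3.0e-06), and Day 15 was below Day 10 by -3.97 ± 0.53 (adjusted p = 2.6e-04), or by -2.78 without replicate 3 (adjusted p = 7.6e-08).

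Besides 1052277, 2 members did not pass between Day 4 and Day 10, and both had low levels. Gene 1393126 was at 5.20, 5.13 and 5.37 in the control, 6.51 and 6.60 at Day 4, 5.49, 5.44 and 6.46 at Day 10, followed by 4.02, 4.64 and 3.84 at Day 15. Its Day 10 libraries lay between control and Day 4, replicate 3 near Day 4. The Day 10 difference from Day 4 was -0.65 ± 0.31 (edgeR adjusted p = 0.109), and -1.06 without Day 10 replicate 3 (adjusted p = 0.00681), while Day 15 was below Day 10 by -1.76 ± 0.34 (adjusted p = 0.00254). Against control it did not pass (0.64 ± 0.29, adjusted p = 0.0674), but passed without Day 10 replicate 2 (0.83, adjusted p = 0.0322) or replicate 1 (0.80, adjusted p = 0.0376), while without replicate 3 the difference was 0.22 (adjusted p = 0.481). The other, 635874, differed from Day 4 by -0.51 ± 0.30 (adjusted p = 0.188) and fell by 1.52 ± 0.31 from Day 10 to Day 15 on the log2 scale (adjusted p = 0.00393). Without Day 10 replicate 2 the number of members higher than control at Day 10 was 5 in place of 3, the fifth being 1556207 (0.41 ± 0.10, adjusted p = 0.0032, against 0.16 and 0.46 with all libraries), named after its value was seen.

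At the other end, 4 members were lowest against control at Day 10. Gene 1349980 had levels of 10.81, 10.73 and 10.69 in the control, 11.84 and 11.92 at Day 4, 7.57, 7.58 and 7.39 at Day 10, then 7.66, 7.59 and 7.34 at Day 15. The Day 10 range lay within that of Day 15, far below the other groups, so that the whole fall had been made by Day 10. It was below control by -3.25 ± 0.11 at Day 10 (edgeR adjusted p = 3.1e-11), and Day 15 differed from Day 10 by 0.01 ± 0.11 (adjusted p = 0.963).

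Gene 1368374 followed the same course at lower levels, with 8.59, 8.69 and 8.69 in the control, 10.05 and 9.65 at Day 4, 6.47, 6.16 and 7.02 at Day 10 and finally 6.51, 6.62 and 6.41 at Day 15. Its Day 10 libraries enclosed those of Day 15, and Day 10 was below control by -2.09 ± 0.19 (edgeR adjusted p = 6.4e-07). Gene 1345102 was at 8.72, 8.62 and 9.01 in the control, 9.90 and 9.84 at Day 4, 6.15, 6.21 and 7.69 at Day 10, followed by 6.13, 6.22 and 5.59 at Day 15. Again replicate 3 was the highest Day 10 library, and the difference between Day 15 and Day 10 of -0.92 ± 0.37 did not pass (adjusted p = 0.0858), although it passed without Day 10 replicate 1 (-1.19, adjusted p = 0.0283) or replicate 2 (-1.18, adjusted p = 0.0303). Without replicate 3 it was -0.23 (adjusted p = 0.512), and the Day 10 difference of 1345102 from control went from -1.94 ± 0.32 (adjusted p = 1.6e-04) to -2.64 (adjusted p = 4.1e-08).

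Gene 1359677 had the largest control-to-Day 15 difference of all members, 12.0-fold by means on the level scale. It was at 10.12, 10.41 and 10.04 in the control, 11.81 and 11.91 at Day 4, 7.74, 7.32 and 8.15 at Day 10, then 6.77, 6.56 and 6.49 at Day 15. No groups overlapped, and unlike for 1349980 the level went on to fall after Day 10, by -1.19 ± 0.20 (edgeR adjusted p = 0.001). Gene 1477861 was at 10.18, 9.91 and 10.21 in the control, 11.98 and 12.38 at Day 4, 8.34, 8.13 and 9.07 at Day 10 and finally 7.43, 7.23 and 7.21 at Day 15. It likewise was below control at Day 10 (-1.56 ± 0.20, adjusted p = 2.2e-05) and lower still at Day 15 (-1.29 ± 0.22 from Day 10, adjusted p = 0.00127).

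The members varied more among Day 10 libraries than among others. Their median SD of the level was 0.37 at Day 10, against 0.11 in the control, 0.11 at Day 4 (2 libraries) and 0.22 at Day 15. This SD was not computed over all genes tested, for which the Day 10 libraries also differed most by the chi-square of the counts. Replicate 3 was the highest Day 10 library for 48 of the 72 members (66.7%), against 35.2% of all genes tested and 36.1% of the pool of 2260. Its level minus the mean of replicates 1 and 2 had a median of 0.39 in the members and -0.01 over all genes tested, and was at least 1 in 10 members (13.9%), against 3.38% of all genes tested. With this library left out, 51 members were lower than control at Day 10, 71 fell from Day 4 and 40 fell from Day 10 to Day 15. The shares of all genes called in that refit are not given here, so no effect particular to the members is read from these counts.

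**Figure D5:**
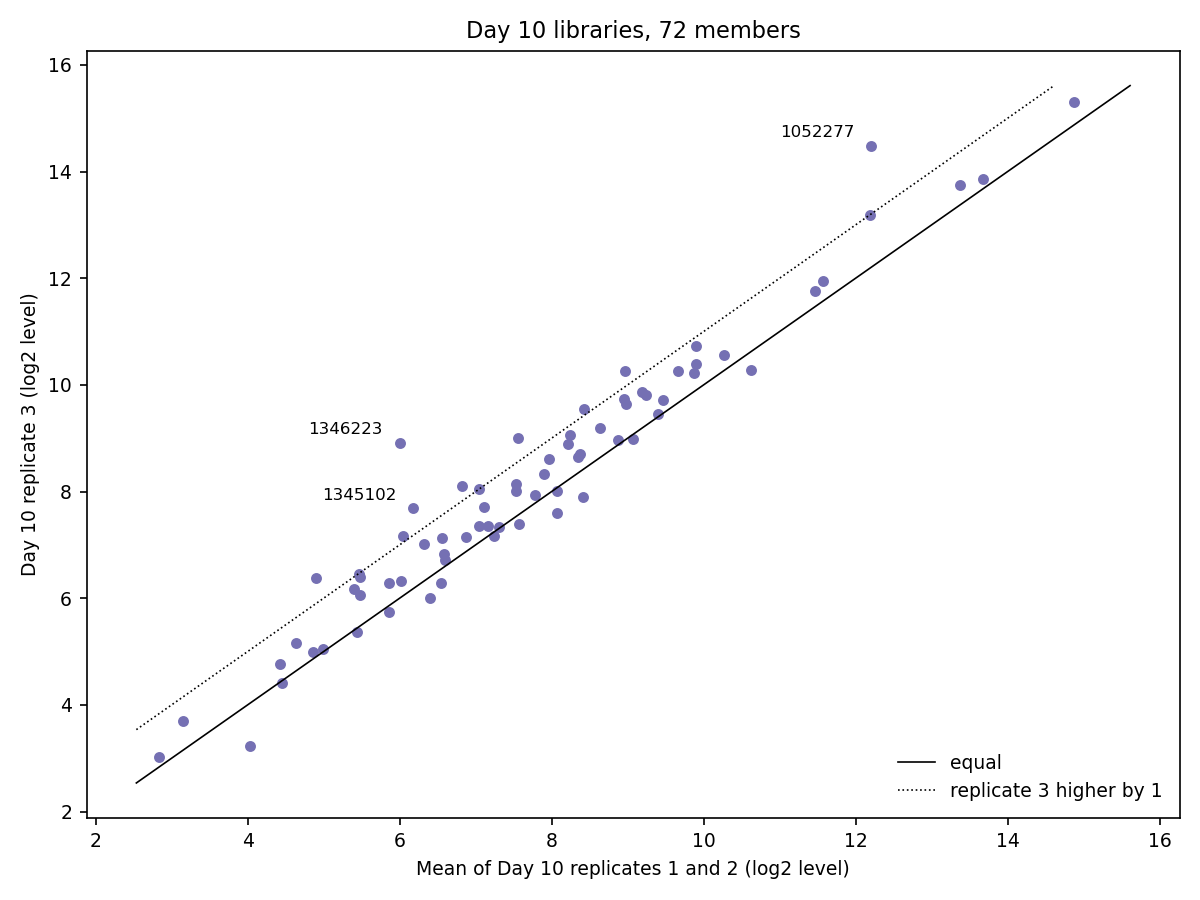
Level of each of the 72 members in Day 10 replicate 3 (y axis, log2) against the mean of Day 10 replicates 1 and 2 (x axis, log2); the solid line marks equal levels and the dotted line a level higher by 1 in replicate 3. The median member is 0.39 above the solid line, and 1346223, 1052277 and 1345102 are farthest above it.

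Gene 1346223, named after its values were seen, had the widest Day 10 spread (SD 1.70, n = 3). It was at 7.61, 7.46 and 7.65 in the control, 9.88 and 10.75 at Day 4, 6.20, 5.80 and 8.92 at Day 10, followed by 4.97, 5.31 and 5.61 at Day 15. Day 10 replicate 3, with 405 counts against 58 and 45, was above every control library, and the others were below them. The widest Day 4 spread was that of 1409997 (SD 1.24, n = 2), at 9.18 and 10.93 at Day 4 and 8.15, 8.12 and 7.94 in the control. Its Day 10 libraries, at 5.64, 6.41 and 6.32, and its Day 15 libraries, at 6.19, 5.65 and 6.24, overlapped each other well below the control.

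All 72 members were matched to gene models of the reference assembly (Polbr1), whose table gives no chromosome names, so no coordinates are given. Their median gene span was 1661.5 bp, from 210 to 7703 bp, against 1551 bp for all genes tested. They were spread over 46 of 456 runs of rising start positions in the table, a stand-in for scaffolds, with at most 4 members in 1 run. The only directly adjacent pair was 1483701 and 1483702, with 1484 bp between them. Gene 1483701 was at 8.87, 8.81 and 8.84 in the control, 10.06 and 9.82 at Day 4, 7.21, 7.41 and 7.33 at Day 10, then 6.59, 6.95 and 6.65 at Day 15. Gene 1483702, at 5.56, 5.38 and 5.20 in the control and 6.49 and 6.81 at Day 4, had lower levels and overlapped the control at Day 10 with 5.45, 4.27 and 4.999, before 3.75, 3.70 and 4.25 at Day 15. The members 1405436, 704603 and 1384540 lay in 1 run with 4 and then 7 genes between them, with Day 4 means 1.12, 1.25 and 1.37 above control and Day 15 differences of -1.63, -1.01 and -1.25.

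Among the 134 tested genes that flank members, 23.1% were at least 1 above control at Day 4, against 15.8% of all genes tested, and 20.9% were at least 1 below it at Day 15, against 15.9%. The flanking genes were not matched for level, and any that overlap a member may share its reads. Shared regulation of neighbours was not tested. The spans of 11 members (15.3%) overlap that of a neighbour, against 25.0% of protein-coding genes, and the counts of these 11 are uncertain. Among them, 1405960 shares 15 bp with 775515, a gene that was 5.25 above control at Day 4 and -0.39 from it at Day 15. The levels of 1405960 were 8.52, 8.53 and 8.49 in the control, 10.46 and 10.85 at Day 4, 6.66, 7.09 and 7.15 at Day 10 and finally 6.91, 6.87 and 6.82 at Day 15. Both genes were thus highest at Day 4, and the part of shared reads in this was not tested.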

How the data were processed

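Counts of reads per gene were deposited by the authors as 1 table of 11 libraries. Per the methods and the submitters' processing notes, Sickle trimmed the reads (quality 20, length 20), TopHat2 mapped them to a monokaryon's genome, keeping unique mappings, and HTSeq made the counts. The notes name DESeq 1.5 and the methods DESeq2 for normalization. Tool versions for mapping and counting, and how strand and overlaps were handled, are not given in the sources used.

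Levels were log2(count / median-of-ratios size factor + 1). Tests used edgeR 4.0.16 (TMM, filterByExpr at 10 counts and 15 in total, quasi-likelihood F test on 4 group means with all libraries, Benjamini-Hochberg over 15462 genes). DESeq2 1.42.0, other scalings and filters, the replicate number as a block and each library left out were alternatives. Depth was 20368063 to 42408348 counts per library. Members and lists were chosen with earlier results of these data known. Named genes were the 6 members with the highest Day 4 level, the 6 largest Day 4 and the 6 largest Day 15 differences from control, the 4 highest and 4 lowest Day 10 differences, and the 2 genes nearest each threshold on either side. Of 18244 protein numbers 18240 matched a locus tag of the RefSeq gene table (Polbr1). Sequences were not used here.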

Additional observations from a re-analysis of the deposited data

Results flagged for a closer look

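Of the 7 members with a mean above control at Day 10, 3 passed edgeR's test over all genes for that difference, and for these 3 the effect against control turned by Day 15, where every member is below control by choice. The difference between the times itself passed the same test. The log2 fold change of Day 15 against Day 10 was -3.97 for 1052277, -4.19 for 548028 and -3.20 for 1397848. Without Day 10 replicate 3 it was -2.78 for 1052277, -3.85 for 548028 and -3.05 for 1397848. The other 4 (1556207, 1353715, 635874 and 1393126) also passed for Day 15 against Day 10, but not for Day 10 against control. Day 15 had a part in choosing the members, Day 10 had none, and both differences share the same control libraries.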

How the results depend on the processing

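With a difference of 1.5 in place of 1 the rule gave 19 members. Leaving out 1 library gave 62 to 75 members, and library totals in place of size factors gave 53, of which 35 were among the 72. Over the leave-one-out fits, members at Day 10 against control were 3 to 5 higher (5 without Day 10 replicate 2) and 38 to 51 lower, 68 to 71 fell from Day 4 to Day 10, and from Day 10 to Day 15 34 to 46 were lower and 0 to 1 higher (1 without Day 10 replicate 1). Fitting only the groups compared gave 36 members lower from Day 10 to Day 15. The shares of all genes called in these and the other refits are not given here, so their counts describe the members only.

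Signs turned for small differences that did not pass and for 1052277. With 1 library left out, Day 10 against control ran from -0.255 to 0.0053 for 1366169 (highest without Day 10 replicate 2), from -0.158 to 0.035 for 139918 (highest without control replicate 3) and from -0.148 to 0.225 for 1353715 (lowest without Day 10 replicate 3, and -0.146 with library totals). Day 10 against Day 4 ran from -0.396 to 1.16 for 1052277 (lowest without Day 10 replicate 3). Day 15 against Day 10 ran from -0.059 to 0.108 for 1349980 (lowest without Day 15 replicate 1, and -0.021 with library totals) and from -0.281 to 0.174 for 1368374 (highest without Day 10 replicate 3). The cause was not tested.

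Replicate numbers were shared by groups. Deviations of same-numbered libraries did not correlate above 0.1 in every pair of any 2 groups with 3 pairs (0.07, 0.06 and 0.04 for Days 10 and 15). Each Day 10 and Day 15 library nevertheless correlated best with its own number. Day 4 has 2 libraries, and its pairs gave 0.16 and 0.17 with Day 10, 0.06 and 0.07 with Day 15, and 0.15 and -0.02 with the control. Both Day 4 libraries correlated best with their own number at Days 10 and 15. Whether the numbers mark a pairing is thus not settled. With the replicate number as a block, members were 3 higher and 49 lower at Day 10 against control, 69 lower from Day 4 to Day 10 and 48 lower from Day 10 to Day 15. The 2 Day 4 libraries limit the precision of every Day 4 value, and members with under 10 counts in a library have the widest relative error.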
